A study of Mus musculus with 2 samples.

Results

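The duplicated let-7 genes of the mouse are the microRNA genes for let-7a, let-7c and let-7f that carry a copy number in their symbol: Mirlet7a-1, Mirlet7a-2, Mirlet7c-1, Mirlet7c-2, Mirlet7f-1 and Mirlet7f-2. They were defined by symbol, after the Ensembl identifiers of the count tables were matched to GENCODE M21, but with earlier results of these data known. All 6 were found among the 2202 microRNA genes counted. Small RNA was sequenced in 2 libraries from a hippocampal layer, by its label, of male adults of the strain labelled 5xFAD/CAST at 8 to 10 months of age. 5xFAD is a transgenic model of Alzheimer disease, and CAST denotes an inbred strain derived from wild mice. The labels do not say how the strains were combined or whether each animal carried the transgenes. The libraries are biological replicates 1 and 2 of 1 group with separate tissue records and 1 shared donor record. Tests between them therefore compare 2 libraries, whose spread may be technical, and no control or other genotype was analysed here.

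MicroRNAs are cut from hairpin precursors whose stem gives a 5p arm and a 3p arm, and 1 arm is loaded into Argonaute to repress messenger RNAs that pair with its seed, bases 2 to 8. In the let-7 family the 5p arm is the usual guide. Let-7 microRNAs are known to rise as cells differentiate, to restrain growth genes such as Hmga2 and Lin28a, and to be abundant in the adult brain, and Lin28 proteins block the processing of let-7 precursors. Several genes encode the same let-7 microRNA, so a read of the mature strand alone may not tell which gene it came from.

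The mature 5p sequences are shown because the copies of a pair share them. All were matched in RefSeq on build GRCm38.p6, and capitals mark the seed.
let-7a-5p, Mirlet7a-1 and Mirlet7a-2: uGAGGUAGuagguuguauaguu
let-7c-5p, Mirlet7c-1 and Mirlet7c-2: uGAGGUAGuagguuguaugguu
let-7f-5p, Mirlet7f-1 and Mirlet7f-2: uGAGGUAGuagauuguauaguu
The 6 genes thus encode 3 different 5p arms with 1 seed, which the 5p arms of let-7b, let-7d, let-7e, let-7g, let-7i and miR-98 also carry. Counted from the 5′ end of let-7a-5p, let-7c-5p differs from it by A19G and let-7f-5p by G12A. Both changes lie outside the seed.

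The 3p arms are shown because they separate most of the copies. Capitals again mark bases 2 to 8.
let-7a-1-3p: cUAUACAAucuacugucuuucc
let-7a-2-3p: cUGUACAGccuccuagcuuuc
let-7c-1-3p: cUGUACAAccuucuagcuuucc
let-7c-2-3p: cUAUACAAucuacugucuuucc
let-7f-1-3p: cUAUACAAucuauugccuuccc
let-7f-2-3p: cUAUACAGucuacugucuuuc
The 6 listed 3p arms comprise 5 different sequences, because let-7a-1-3p and let-7c-2-3p are identical. The single substitution between let-7a-1-3p and let-7f-2-3p over their common length is A8G, at the last base of the seed. Within numbered pairs the 3p arms lie further apart, with 6 substitutions between the let-7a copies, 5 between the let-7c copies and 4 between the let-7f copies.

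The hairpins show where a short read could tell the copies apart. Capitals mark bases outside every stretch of 20 bases that also occurs in a microRNA gene at another place on either strand, and lower case marks bases inside such a shared stretch. The RefSeq hairpins were equal to the GENCODE M21 transcripts for all 6 genes.
Mirlet7a-1: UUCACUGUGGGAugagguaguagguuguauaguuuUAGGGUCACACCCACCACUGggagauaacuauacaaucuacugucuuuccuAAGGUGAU
Mirlet7a-2: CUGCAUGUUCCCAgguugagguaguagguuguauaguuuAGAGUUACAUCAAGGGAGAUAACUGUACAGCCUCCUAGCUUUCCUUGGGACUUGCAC
Mirlet7c-1: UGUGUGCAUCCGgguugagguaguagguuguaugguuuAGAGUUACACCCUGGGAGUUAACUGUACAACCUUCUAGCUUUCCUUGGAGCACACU
Mirlet7c-2: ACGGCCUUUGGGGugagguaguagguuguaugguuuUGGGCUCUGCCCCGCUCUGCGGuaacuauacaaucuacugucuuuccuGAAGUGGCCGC
Mirlet7f-1: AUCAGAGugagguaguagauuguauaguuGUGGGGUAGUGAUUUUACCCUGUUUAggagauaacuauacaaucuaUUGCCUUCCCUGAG
Mirlet7f-2: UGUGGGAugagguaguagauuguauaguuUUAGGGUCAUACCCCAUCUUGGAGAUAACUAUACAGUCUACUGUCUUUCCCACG
The 5p arm was in lower case in every hairpin. Both arms were shared in Mirlet7a-1 and Mirlet7c-2, where 54 of 94 and 49 of 95 bases lay in a shared stretch. In Mirlet7f-2, Mirlet7a-2 and Mirlet7c-1 the shared bases lay at the 5p arm alone, with 22 of 83, 26 of 96 and 26 of 94 bases. Mirlet7f-1 had part of its 3p side in a stretch of 20 bases shared with Mirlet7a-1, but its 3p arm as a whole occurred at no other place. These are reference sequences, not those of the mice studied, and sequence outside annotated microRNA genes was not searched.

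**Figure D1:**
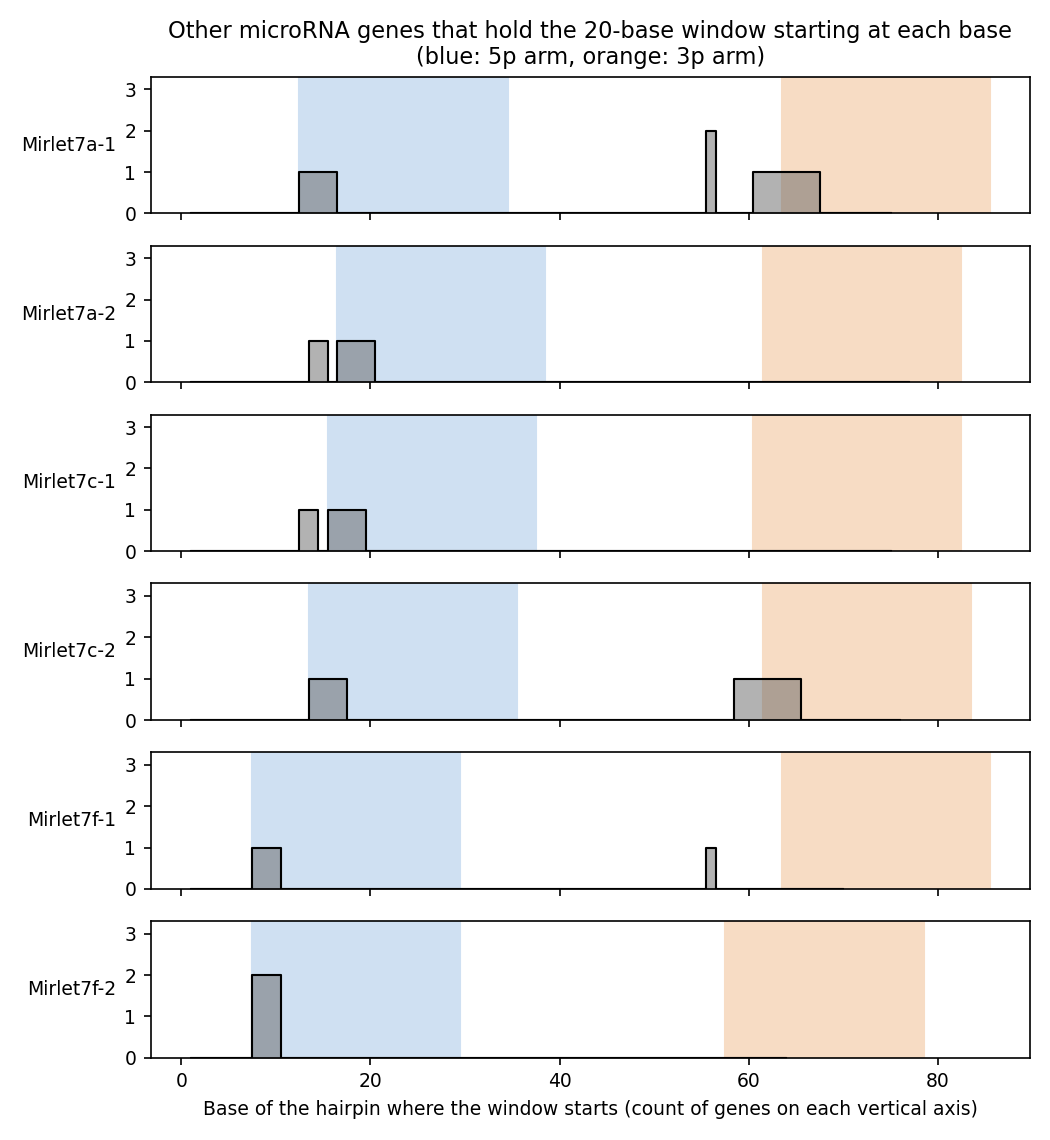
Number of microRNA genes at other places (vertical axes) that hold the 20-base window starting at each base of the hairpin (horizontal axis), for the 6 genes, with the 5p arm shaded blue and the 3p arm orange. Some windows starting in the 5p arm are shared in each of the 6 hairpins, while windows starting in the 3p arm are shared only in Mirlet7a-1 and Mirlet7c-2.

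A few further bases would separate the copies. Extended along its own hairpin, the 5p arm of each let-7a and let-7c gene occurred in no other microRNA gene after 2 further bases at the 3′ end or 1 further base at the 5′ end. For the let-7f genes 1 further base at either end was enough. The shared 3p arm of Mirlet7a-1 and Mirlet7c-2 needed 2 further bases at the 3′ end or 4 at the 5′ end. These are exact matches between reference hairpins, and the count tables do not say which arm or which read ends were sequenced.

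The number in the symbol did not mark the most similar hairpin for most copies. By edit distance, the smallest number of single-base changes that turns one hairpin into another, Mirlet7a-1 was nearest to Mirlet7f-2, at 19, and lay 31 from Mirlet7a-2. Mirlet7a-2 was nearest to Mirlet7c-1, at 20, and Mirlet7c-1 lay 32 from Mirlet7c-2. Mirlet7c-2 was nearest to Mirlet7a-1, at 26, and the longest stretch they shared was 26 bases over the 3p arm. Mirlet7f-1 was the only copy nearest to its numbered partner, at 25 from Mirlet7f-2.

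The 6 genes lie in 5 clusters with other microRNA genes on the same strand (GENCODE M21, mm10). Mirlet7a-1 (ENSMUSG00000065421.3, chromosome 13, 48538179 to 48538272, minus strand) and Mirlet7f-1 (ENSMUSG00000105621.1, chromosome 13, 48537829 to 48537917, minus strand) are 262 bases apart, with Mirlet7d beyond them, in an exon of the long noncoding RNA 6720427I07Rik. Mirlet7a-2 (ENSMUSG00000092770.1, chromosome 9, 41536716 to 41536811, plus strand) lies 5.21 kb from Mir100, in an intron of the noncoding transcripts 3110039I08Rik and Gm49317. Mirlet7c-1 (ENSMUSG00000065557.3, chromosome 16, 77599657 to 77599750, plus strand) lies 657 bases from Mir99a in an intron of Mir99ahg. Mirlet7c-2 (ENSMUSG00000065608.1, chromosome 15, 85706603 to 85706697, plus strand) lies 622 bases from Mirlet7b in an exon of Lncppara. Mirlet7f-2 (ENSMUSG00000065602.1, chromosome X, 151912346 to 151912428, plus strand) lies 786 bases from Mir98 in an intron of Huwe1, which encodes a ubiquitin ligase. Mirlet7a-2 and Mirlet7c-1 sit in parallel settings, each beside a gene of the miR-99 and miR-100 family and about 45.1 and 46.5 kb from a copy of miR-125b.

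Counts rest on 3421977 reads assigned to microRNA genes in replicate 1 and 2820468 in replicate 2. These were 35.2% and 33.0% of all reads. Multimapping reads, counted without a gene because they fit several places, were more numerous, at 4037293 (41.6%) and 3264159 (38.2%). Unmapped reads were 16.6% and 22.6%. Levels are given as CPM, reads of the gene scaled to a common total of assigned reads, and a gene with at least 10 reads in both libraries was called detected. That held for 389 of the 2202 genes (17.7%). As a check of the labelled tissue, a list of 16 brain-enriched microRNA genes took 3.82% and 4.11% of assigned reads with 12 detected, led by Mir132 (12751 ± 1353 CPM, SD, n = 2). The neural miR-124 genes, themselves numbered copies, were near 0, with 5 reads of Mir124a-1 in each library and none of the other two. A list of 10 genes of other tissues took 0.0807% and 0.0560%, with 7 detected and none at 0 reads in both libraries, led by Mir375 (581 ± 177 CPM), a gene of endocrine cells.

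All 6 duplicated let-7 genes were detected, against 17.7% of all genes, yet they took a small share of the assigned reads. It was 0.510% in replicate 1, with an exact Clopper-Pearson 95% interval of 0.503 to 0.518. In replicate 2 it was 0.558% (0.549 to 0.567). They held 17464 and 15734 reads. The 6 single-copy genes of the family held 1200773 and 925451 reads, or 68.8 and 58.8 for each read of a duplicated gene. The duplicated genes thus made up 1.43% and 1.67% of the reads given to the family. For each of their reads there were 231 and 207 reads in the library that fit several places. How many of those were let-7a, let-7c or let-7f cannot be read from the tables, so the levels below are of reads given to a gene and not of the microRNAs in the tissue. Intervals cover counting error only and take in no spread between libraries. The reads carry no molecular identifiers.

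Mirlet7f-2 was the highest of the copies, with 8729 reads in replicate 1 and 8111 in replicate 2. Its level was 2713 ± 230 CPM (SD, n = 2), rank 53 of the 389 detected genes, and it alone held 50.0% and 51.6% of the reads of the 6 genes. Its level was 17.0 times that of Mirlet7a-2, the lowest copy. Its 3p arm, printed above, occurred in no other microRNA gene.

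Mirlet7c-2 came second, with 4954 and 4254 reads and 1478 ± 42.8 CPM. It held 28.4% and 27.0% of the reads of the 6 genes, although both of its mature arms also occur in another gene. Mirlet7c-1, with a 3p arm of its own, had 1474 and 1616 reads and 502 ± 101 CPM. Both let-7c copies were higher than every copy of let-7a in both libraries.

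The 3 lowest copies were close to each other. Mirlet7a-1 had 1011 and 710 reads (274 ± 30.9 CPM), Mirlet7f-1 had 846 and 515 (215 ± 45.7 CPM) and Mirlet7a-2 had 450 and 528 (159 ± 39.4 CPM). Mirlet7f-1 and Mirlet7a-2 overlapped and changed order between the libraries, at 247 and 132 CPM in replicate 1 and 183 and 187 CPM in replicate 2. Mirlet7a-1 lay above both in each library, but its mean differed from that of Mirlet7f-1 by less than the sum of their SDs. The 3 higher copies did not overlap each other or the rest. Divided by hairpin length, which ran from 83 to 96 bases, the order of the means was the same, from 3269 ± 277 CPM per 100 bases for Mirlet7f-2 to 166 ± 41.0 for Mirlet7a-2.

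**Figure D2:**
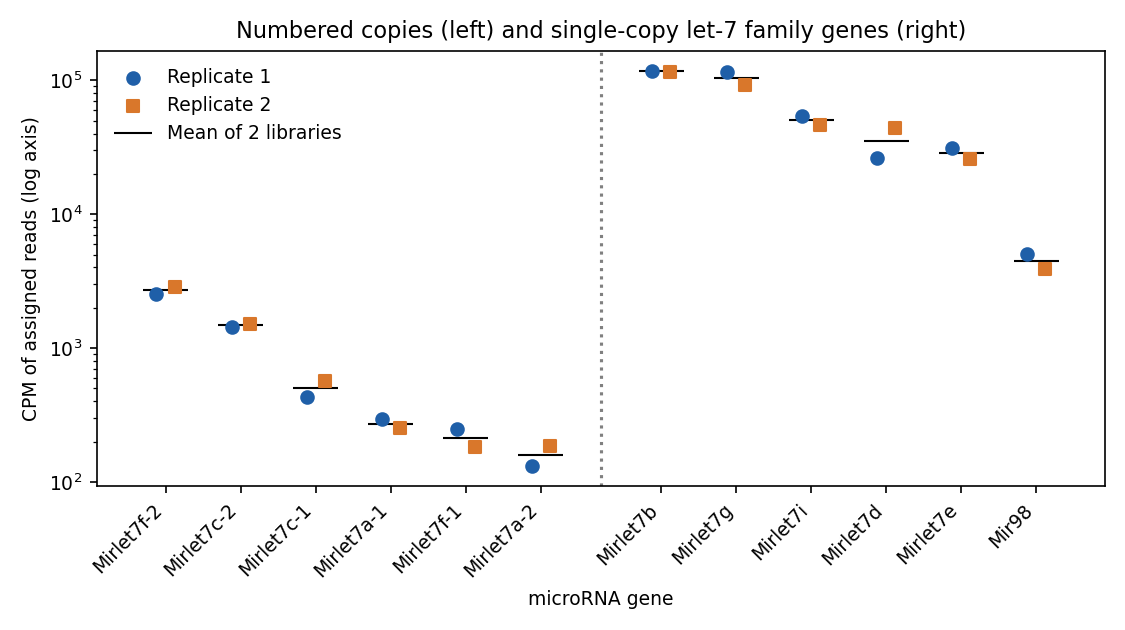
CPM of assigned reads (log axis) of the 6 numbered copies and the 6 single-copy genes of the let-7 family in both libraries, with a line at the mean. Every numbered copy lies below every single-copy gene, and the copies run from 159 to 2713 CPM on average.

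Every single-copy gene of the family was higher than every duplicated one in both libraries. The closest were Mir98, a let-7 relative with 4457 ± 803 CPM, and its neighbour Mirlet7f-2. The median level of the 6 duplicated genes was 388 CPM, against 105 CPM over all detected genes. Among the 132 numbered copies of other microRNA genes, in 50 families, 35 were detected (26.5%), and the median level of those 35 was 85.5 CPM. Only 3 of the 132 had a higher mean level than Mirlet7f-2 (Mir128-1, Mir138-1 and Mir219a-2, singled out after their values were seen). Mir219a-2 was higher in replicate 1 (2977 against 2551 CPM) but lower in replicate 2 (2662 against 2876 CPM). Of the 35 detected, 21 were lower than Mirlet7a-2. These counts are descriptions, with no test.

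Having a mature arm of their own did not order the let-7 copies. The 4 genes with a 3p arm found in no other gene ran from 159 to 2713 CPM, with a median of 358, and the 2 genes without one had 274 and 1478 CPM. Among other numbered copies with a mature sequence in RefSeq, 30 of 51 with such an arm were detected (58.8%), against 5 of 29 without one (17.2%). The share over all genes was 17.7%, so the copies without such an arm lay near it. RefSeq lists 1 arm only for some genes, among them Mir219a-2, so some detected genes counted without such an arm may be misclassed. Unlisted 5p arms were filled in for the let-7 copies alone. The comparison is a description over genes that share sequences.

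Each let-7 pair gave unequal shares of its reads to its copies. In replicate 1 Mirlet7a-1 took 69.2% of the let-7a reads (exact 95% interval 66.8 to 71.6), against 57.4% (54.5 to 60.1) in replicate 2. Mirlet7c-2 took 77.1% (76.0 to 78.1) and 72.5% (71.3 to 73.6) of the let-7c reads. Mirlet7f-2 took 91.2% (90.6 to 91.7) and 94.0% (93.5 to 94.5) of the let-7f reads. The leading copy was the same in both libraries for all 3 pairs.

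The shares differed between the libraries in each pair beyond counting error. By a two-sided Fisher's exact test with Benjamini-Hochberg adjustment over all 23 numbered pairs with at least 10 reads, the adjusted p was 1.17e-09 for let-7a, 2.25e-08 for let-7c and 2.16e-12 for let-7f. Of the 23 pairs 11 passed (47.8%), so such differences were common at these depths. The share moved by 11.8 percentage points in let-7a, 4.60 in let-7c and 2.87 in let-7f, against a median of 2.87 over the 23 pairs and a largest value of 40.7. These shares do not depend on how the libraries are scaled.

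**Figure D3:**
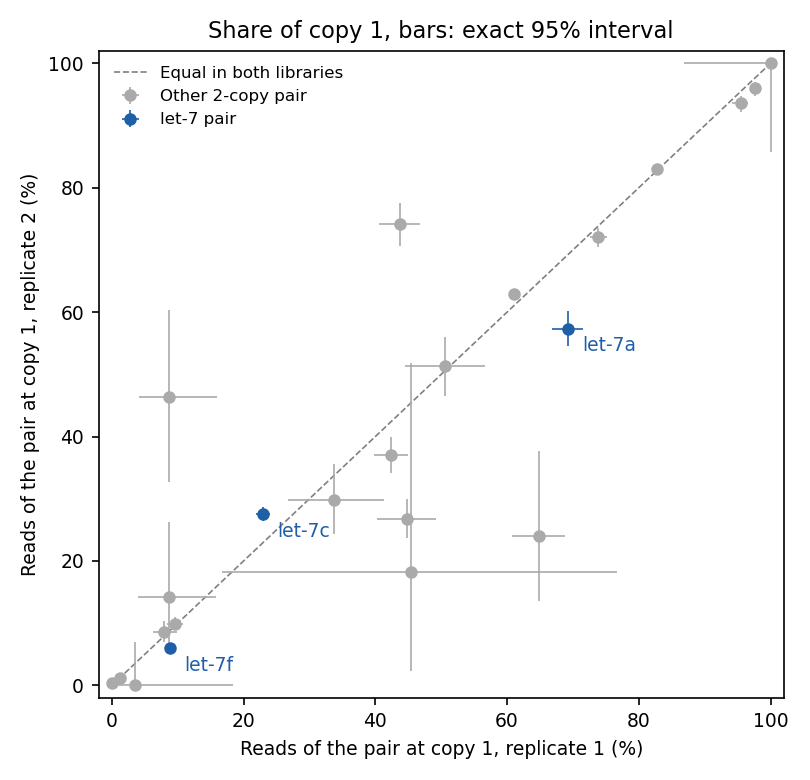
Percent of a pair's reads given to copy 1 in replicate 1 (horizontal axis) and replicate 2 (vertical axis), with exact 95% intervals, for the 23 numbered pairs. The let-7a and let-7f points lie below the line of equal shares and the let-7c point above it.

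Between the libraries the copies did not move together. Log2 ratios are of replicate 2 over replicate 1 on counts scaled by TMM, which sets the library sizes so that most genes are level. By a two-sided exact binomial test with Benjamini-Hochberg adjustment over 389 genes, 5 of the 6 copies differed, 3 higher and 2 lower in replicate 2. Over all detected genes 67.6% differed (33.9% higher and 33.7% lower), so the calls of the copies lie near the background and are no result about these genes in particular. The median size of the log2 ratio, sign removed, was 0.32 for the copies and 0.52 for all detected genes.

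Mirlet7a-2 and Mirlet7c-1 were both higher in replicate 2. Mirlet7a-2 went from 132 to 187 CPM, a log2 ratio of 0.41 (exact 95% interval 0.23 to 0.60, adjusted p = 1.93e-05, exact binomial). Mirlet7c-1 went from 431 to 573 CPM, a log2 ratio of 0.31 (0.21 to 0.42, adjusted p = 4.38e-09). Their intervals overlapped.

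Mirlet7a-1 and Mirlet7f-1, neighbours on chromosome 13, were both lower in replicate 2. Mirlet7a-1 went from 295 to 252 CPM, a log2 ratio of -0.33 (-0.47 to -0.19, adjusted p = 5.67e-06, exact binomial). Mirlet7f-1 went from 247 to 183 CPM, a log2 ratio of -0.54 (-0.70 to -0.38, adjusted p = 4.39e-11), the furthest from 0 of the 6. Across all detected genes 51.4% lay no further from 0 than that.

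The 2 most abundant copies were the most alike between the libraries. Mirlet7f-2 had a log2 ratio of 0.074 (0.030 to 0.12, adjusted p = 0.0016, exact binomial), and 0.021 (adjusted p = 0.41) with DESeq2 size factors. Mirlet7c-2 had a log2 ratio of -0.040 (-0.099 to 0.020, adjusted p = 0.24), and its sign depended on the scaling, at 0.059 with assigned totals. With the spread of both libraries as error (edgeR exact test), 0 of the 6 copies passed, each with an adjusted p of 1.0, and 0 had an unadjusted p under 0.05. That test called 2 of the 389 genes (0.514%), and 23 of the 389 had an unadjusted p under 0.05. It takes its error, a biological coefficient of variation of 0.41, from the same 2 libraries.

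Summed over a pair, the reads of the copies differed little between the libraries with TMM. The reads of both let-7a genes had a log2 ratio of -0.059 (-0.17 to 0.051), those of both let-7c genes 0.049 (-0.0024 to 0.10) and those of both let-7f genes 0.029 (-0.013 to 0.071). All 6 together had 0.029 (-0.0017 to 0.061). The size of these sums is within what the choice of scaling moves, since assigned totals add 0.099 to every log2 ratio and DESeq2 size factors take it down by 0.053. With assigned totals the sum over all 6 was 0.13 (0.097 to 0.16), and the sums of let-7c (0.15) and let-7f (0.13) also had intervals above 0, and with DESeq2 size factors that of let-7a (-0.11) had an interval below 0. Among other genes with at least 100 reads, the nearest in log2 ratio to the sum over the 6 copies were Mir744 (0.040), Mir1981 (0.045) and Mir188 (0.0080), a likeness over 2 libraries only.

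Set beside the other genes of their clusters, the copies often moved the other way. Over all detected genes 33.9% were called higher and 33.7% lower in replicate 2, so opposite directions were common among genes at large. No gene named here from these clusters passed the edgeR exact test. On chromosome 13 Mirlet7d, a single-copy gene of the family, had a log2 ratio of 0.66 (0.65 to 0.67), while Mirlet7a-1 and Mirlet7f-1 were lower. The library held 88.7 reads of Mirlet7d for each read of Mirlet7a-1 in replicate 1 and 176 in replicate 2. For each read of Mirlet7f-1 it held 106 and 243. These ratios within a library do not depend on scaling.

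The clusters on chromosomes 9 and 16 showed the reverse. Mir100 and Mir125b-1 had log2 ratios of -0.32 and -0.34 beside 0.41 for Mirlet7a-2. Reads of Mir100 for each read of Mirlet7a-2 went from 34.0 to 20.4. Mir99a and Mir125b-2 had -0.21 and -0.20 beside 0.31 for Mirlet7c-1, and reads of Mir99a for each read of Mirlet7c-1 went from 52.0 to 36.3. In all 3 clusters the 95% interval of the let-7 copy overlapped that of no other gene named from its cluster, except between Mirlet7a-1 and Mirlet7f-1. These intervals cover counting error only. The exact binomial test called 67.6% of all detected genes, and 86.3% of those with at least 100 reads in both libraries. Intervals that do not overlap are therefore no result about these clusters in particular.

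On chromosome X, Mir98 had a log2 ratio of -0.47 (-0.50 to -0.43), with 1.97 reads for each read of Mirlet7f-2 in replicate 1 and 1.35 in replicate 2. This was the only single-copy neighbour within 10 kb whose reads came within 2 times those of the copy in a library. On chromosome 15 Mirlet7b, the most abundant gene in the tables, had -0.13 (-0.14 to -0.13), with 81.6 and 76.5 reads for each read of Mirlet7c-2. The part that reads fitting several places, unmapped reads or hairpin GC content (39.3% in Mirlet7f-1 to 53.7% in Mirlet7c-2) play in any of these differences was not tested.

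**Figure D4:**
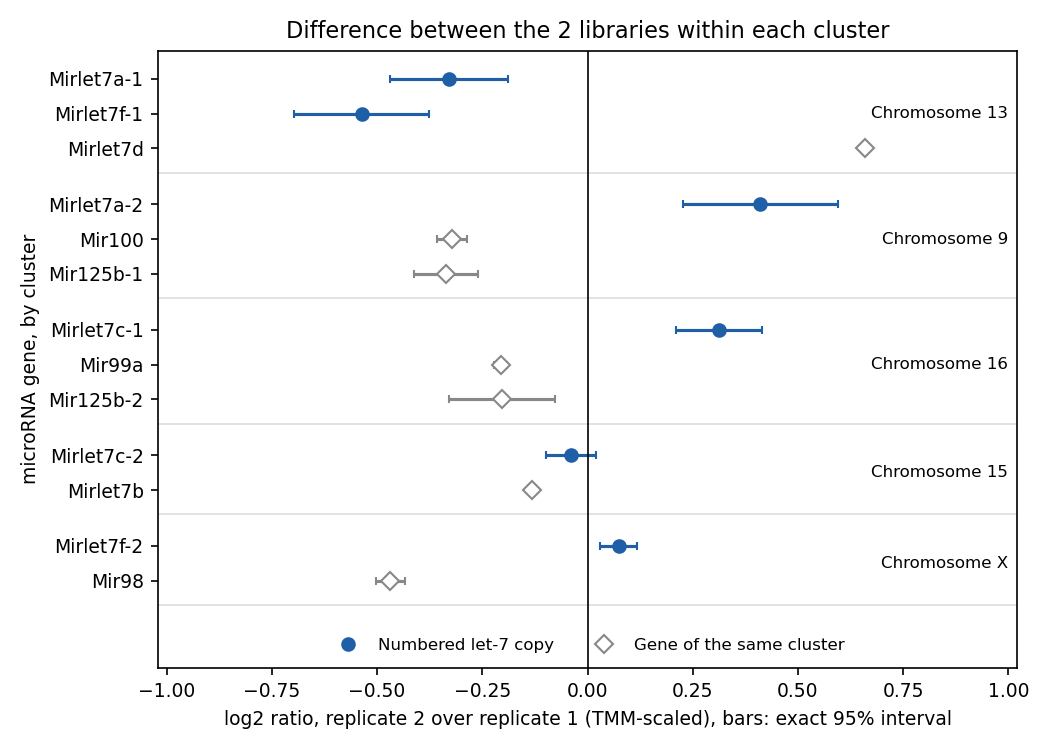
Log2 ratio of replicate 2 over replicate 1 on TMM-scaled counts (horizontal axis) with exact 95% intervals, for the 6 numbered let-7 copies (filled circles) and the other genes of their clusters (open diamonds). Mirlet7a-1 and Mirlet7f-1 lie left of 0 with Mirlet7d right of it, and Mirlet7a-2 and Mirlet7c-1 lie right of 0 with their neighbours left of it.

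Mirlet7f-1 depended on the count column. On the other strand it is overlapped by the annotated microRNA gene Gm24111 (chromosome 13). In the column that disregards strand Mirlet7f-1 had 0 reads in both libraries, against 846 and 515 on its own strand. Gm24111 had 0 reads on its own strand, and the same 846 and 515 in the column for the strand opposite to it. The other 5 copies had the same counts with and without regard to strand, and no copy had a read in its opposite-strand column. Such overlap was not particular to Mirlet7f-1, since a microRNA gene on the other strand also overlaps the single-copy Mirlet7e. In the column that disregards strand 364 genes had at least 10 reads in both libraries, against 389 on the gene strand.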

How the data were processed

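The 2 tables deposited, 1 for each library, hold raw counts of reads at each microRNA gene, with columns that disregard strand, follow the strand of the gene and follow the opposite strand. They use mm10 and GENCODE M21, per the labels and the notes filed beside the tables. For the aligner, the counter and trimming, nothing is stated (not given in the sources used here). The members and lists were chosen with earlier results of these data known.

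The gene-strand column was used. The 4 rows that name no gene (64.8% and 67.0% of reads) entered no library size or test. TMM factors and the edgeR exact test came from edgeR 4.0.16 in R 4.3.3, size factors from DESeq2 1.42.0, and exact binomial, Clopper-Pearson and Fisher tests from scipy 1.17.1, with a threshold of 0.05. With 1 group, a quasi-likelihood test had no contrast. The test functions were tested on simulated data. The floor for a gene without reads (3 reads) was 0.877 CPM in replicate 1 and 1.06 CPM in replicate 2. Edit distances came from edlib. Hairpin windows of 18, 20 and 22 bases were compared over all 2202 genes, leaving out overlapping genes. Named genes were the 6 copies, the single-copy family, cluster neighbours within 10 kb, the 4 miR-99, miR-100 and miR-125b genes, and the 3 genes nearest in log2 ratio, besides genes of the tissue check and 4 genes named after their values were seen (Mir128-1, Mir138-1, Mir219a-2 and Gm24111). Alternatives were other scalings, count minimums, count columns, denominators, tests, levels per hairpin length and each library alone.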

Additional observations from a re-analysis of the deposited data

How the results depend on the processing

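With TMM scaling in both, the number of copies that differed between the libraries was 5 of 6 by the exact binomial test and 0 by the edgeR exact test. Over all detected genes the shares were 67.6% and 0.514%. The share of reads held by the 6 genes, 0.534%, was 0.182% of all reads and 0.246% of assigned plus multimapping reads. In the libraries taken alone it ran from 0.510% to 0.558%, and the fold of Mirlet7f-2 over Mirlet7a-2 from 15.4 to 19.4. The log2 ratio of Mirlet7c-2 was 0.059 with assigned totals in place of TMM. Its call was gained with DESeq2 size factors (-0.093) and with the strand-blind column (-0.072), where that of Mirlet7f-2 was lost (0.021 and 0.042). The strand-blind column also left Mirlet7f-1 at 0, so its log2 ratio could not be computed. In that column 2 of the 3 let-7 pairs differed in share, beside 9 of all 20 numbered pairs tested. Count minimums of 1 and 100 reads changed the direction or call of none of the 6 genes. Leaving out 1 library leaves no test between libraries. No paired analysis was possible because there is 1 group only.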
